A study of Mus musculus with 96 samples.

Results

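Intermediate filaments are the cytoskeletal polymers that give a cell its mechanical resilience, and the genes examined here are 10 members of that family, chosen by symbol: the keratins Krt7, Krt8, Krt18, Krt19, Krt20 and Krt23, and the non-epithelial filament genes Vim, Des, Nes and Nefl. All 10 were found, each once, among 54532 genes of the deposited table. Ultra-low input RNA-seq libraries were made from microdissected pieces of kidney of male C57BL/6 mice aged 6 to 8 weeks: 87 libraries of 14 tubule segments and 6 of glomeruli. The labels name no transgene, allele or treatment, and the groups differ by anatomical origin. The groups are glomerulus (GL, 3 mice), the 3 stretches of the proximal tubule (PTS1, 3 mice, PTS2, 5, and PTS3, 3) and the thin descending limb of short loops (DTL1, 3) and of long loops in outer and inner medulla (DTL2 and DTL3, 3 each). The ascending limb was sampled where it is thin (ATL, 4), thick and medullary (MTAL, 3) and thick and cortical (CTAL, 5). Further on came convoluted distal tubule (DCT, 3), connecting tubule (CNT, 3) and collecting duct of the cortex (CCD, 5), the outer medulla (OMCD, 4) and the inner medulla (IMCD, 3). Pieces with the same mouse number in a group were averaged first, which gave 53 values. Each is called a mouse below, and whether a number marks the same animal in different segments is not given in the sources used here. A piece holds all cells of a segment, so in every value below fewer cells of a type and less RNA per cell cannot be told apart.

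Keratins polymerise as obligate pairs of 1 acidic type I protein and 1 basic type II protein. KRT8 (type II) with KRT18 (type I) is the pair of simple epithelia, KRT7 is a second type II keratin of ducts, and KRT19, KRT20 and KRT23 are further type I keratins. Vimentin (Vim) and desmin (Des) are type III filament proteins of mesenchymal and muscle cells, both known from podocytes or mesangial cells of the glomerulus. Nestin (Nes) is a type VI protein first described in neural progenitors and known from podocytes, and Nefl encodes the light neurofilament subunit of axons. In the mouse, type II genes lie in a cluster on chromosome 15 and type I genes on chromosome 11, with the exception of Krt18, which lies beside Krt8 in the type II cluster.

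Promoter windows of 4 keratins are printed because their transcripts separate most plainly along the nephron: Krt8 and Krt18, the pair that sits side by side and yet is transcribed at very different ratios, Krt7, and Krt23, which is listed near 0 in some segments and is abundant in their neighbours. Each window runs from 250 bases before to 50 bases after the RefSeq gene start (GRCm38.p6), 5' to 3' on the gene's strand. RefSeq windows matched 8 of the 10 members, all but Krt19 and Nefl. The windows are chr15:102004293-102004592 (minus strand) for Krt8, chr15:102027966-102028265 (plus strand) for Krt18, chr15:101412153-101412452 (plus strand) for Krt7 and chr11:99493071-99493370 (minus strand) for Krt23. Capitals mark matches, on either strand, to 6 short motifs: the TATA motif TATAA, the GC box written GGGCGG, the CCAAT box, the AP-1 motif TGANTCA, the GATA motif AGATAA and the grainyhead motif AACNGGTT.
Krt8: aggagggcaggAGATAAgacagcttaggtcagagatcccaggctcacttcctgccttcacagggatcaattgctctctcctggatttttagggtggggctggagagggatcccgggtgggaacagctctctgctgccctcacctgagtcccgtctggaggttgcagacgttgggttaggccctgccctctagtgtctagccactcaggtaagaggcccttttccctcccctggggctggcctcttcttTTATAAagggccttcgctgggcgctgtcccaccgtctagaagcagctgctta
Krt18: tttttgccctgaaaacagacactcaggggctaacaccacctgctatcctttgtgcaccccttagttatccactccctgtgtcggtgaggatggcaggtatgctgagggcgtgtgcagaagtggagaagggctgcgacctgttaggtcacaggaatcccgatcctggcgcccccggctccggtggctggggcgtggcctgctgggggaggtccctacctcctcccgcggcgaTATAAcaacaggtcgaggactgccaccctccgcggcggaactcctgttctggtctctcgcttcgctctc
Krt7: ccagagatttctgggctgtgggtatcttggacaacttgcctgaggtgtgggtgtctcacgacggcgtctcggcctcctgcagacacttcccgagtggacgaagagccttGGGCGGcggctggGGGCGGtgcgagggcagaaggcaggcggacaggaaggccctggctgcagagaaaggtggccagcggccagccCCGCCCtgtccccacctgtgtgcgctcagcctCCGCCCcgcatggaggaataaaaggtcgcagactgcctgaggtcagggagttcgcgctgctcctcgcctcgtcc
Krt23: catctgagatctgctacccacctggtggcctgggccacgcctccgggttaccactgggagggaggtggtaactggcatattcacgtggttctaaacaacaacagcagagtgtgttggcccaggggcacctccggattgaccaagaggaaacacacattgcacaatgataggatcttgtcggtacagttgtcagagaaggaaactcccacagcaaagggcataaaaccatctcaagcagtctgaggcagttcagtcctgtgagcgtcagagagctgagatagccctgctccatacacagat
Krt18 holds 1 TATA match, 19 bases before the start. Krt8 holds TATAA on both strands, the matches overlapping within 1 run of 6 bases across the start, and 1 GATA match. Krt7 holds 4 GC boxes and no TATAA, and Krt23 holds none of the 6 motifs. Of 32851 promoter windows of the same length, 24.9% hold TATAA, 35.7% the GC box, 37.4% CCAAT, 7.8% AP-1, 11.2% GATA and 2.1% the grainyhead motif. A match is a description of the letters, and the libraries measure no binding.

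Levels are TPM, transcript abundances that the authors scaled per length and to a common total per library, so that levels of different genes may be set side by side. Tests used limma on log2(TPM + 1), and a log2 difference is on that scale, which understates the change of low genes. A member was called when its Benjamini-Hochberg adjusted p over all genes tested was under 0.05 and its difference at least 1 log2 unit. A gene was tested if it reached 1 TPM in 3 mice, which 33793 genes and 9 members did; Krt20 did not. All 9 tested members differed among the 15 groups by limma's F-test, as did 93.9% of all genes tested. A stricter intersection-union test, which takes the weakest of a group's 14 comparisons with the others, called 5 of the 9 as highest in 1 group (Krt23, Vim, Des, Nes and Nefl), against 8.8% of all genes. Libraries of some groups carried a raised background, taken as the 95th percentile of 1740 odorant and vomeronasal receptor genes. That kidney cells make little use of these genes was assumed and not tested. This background was 5.17 to 10.96 TPM in DTL1, 2.05 to 4.90 in GL and 2.76 to 3.29 in DTL3. It was 1.98 to 2.32 in DTL2, 0.09 to 7.06 in ATL and at most 1.70 elsewhere. Low values in the groups with a raised background are set beside it. Defining transcripts were checked by segment: podocyte genes summed to 13091 TPM or more in GL and 142 or less in any tubule mouse, 2 thick limb genes to at least 21433 TPM in MTAL and CTAL, 2 distal convoluted genes to at least 5863 in DCT, and 4 principal cell genes to at least 8624 in CNT, CCD, OMCD and IMCD. Thin limb genes summed to at least 3009 TPM in DTL1, DTL2, DTL3 and ATL. They were not confined to these groups, with 1402 to 2683 TPM in IMCD, 1152 to 1380 in MTAL and 699 to 771 in CTAL. In the proximal tubule they summed to 184 to 212 TPM in PTS1, 684 to 900 in PTS2 and 620 to 841 in PTS3. Proximal genes summed to at least 4733 TPM in PTS1 and PTS2 but to 73.9 to 86.6 in PTS3, where Slc5a2 was listed at 0, and 1 DCT mouse held 196 TPM of them. Thick limb genes summed to 1379 to 2245 TPM in DCT, 81.0 to 394 in DTL1, 188 to 330 in DTL3 and 109 to 188 in CNT, and their part in the values of those segments was not tested. No read counts were given with the TPM values, so the depth of each library is unknown.

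Krt7 (ENSMUSG00000023039) was near 0 in the proximal tubule and above 50 TPM in every mouse of the other groups. In PTS1 the 3 mice were at 0.46, 0.64 and 0.45 TPM, in PTS2 the 5 mice were at 0.43, 0.73, 0.38, 0.70 and 0.49, and in PTS3 at 0, 0 and 0.54. From DTL1 (90.4, 92.2 and 52.8 TPM) onward every tubule mouse was above 50 TPM. No mouse of the other tubule segments overlapped the proximal mice. The difference was 6.08 log2 units from PTS3 to DTL1 (SE 0.20, adjusted p 3.77e-28 by limma) and 6.56 from PTS3 to DTL2 (SE 0.20, adjusted p 3e-29).

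Krt7 was highest in CCD, at 825, 704, 918, 777 and 699 TPM, and in CNT, at 639, 792 and 694 TPM. The ranges of CCD and CNT overlapped, and the difference of 0.15 (SE 0.18) was not called. OMCD followed with 474, 492, 470 and 524 TPM, below every CNT and CCD mouse, at a difference of 0.67 from CCD (SE 0.16, adjusted p 0.00171) that was under 1 log2 unit. In IMCD it stood at 210, 190 and 199 TPM, and it was lower than in OMCD by 1.299 log2 units (SE 0.18, adjusted p 1.45e-07 by limma), or 0.96 and no longer called after rescaling by median ratios. Intercalated cell genes, 4 of 4 called, summed to 2118 to 2866 TPM in OMCD and 0.33 to 4.55 in IMCD. Their part in this Krt7 difference was not tested. CTAL (320 to 379 TPM), DCT (209 to 263) and MTAL (176 to 258) were lower than OMCD, and ATL spread from 245 to 627. Glomeruli held 152, 133 and 153 TPM, a level near that of DTL3 and DTL2, and the difference from the mean of the tubule groups, 0.72 (SE 0.14), stood beside a median of 0.69 over all genes in that comparison. That positive log2 difference runs against the mean TPM, 146 in GL and 275 over the tubule groups, because the proximal groups near 0 lower the mean of the log values.

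Krt8 (ENSMUSG00000049382) was present in every tubule mouse, at 39.4 TPM at the lowest and 420 at the highest. In the proximal segments it stood at 59.8, 53.4 and 64.4 TPM (PTS1), 90.8, 107, 107, 128 and 121 (PTS2) and 83.6, 74.0 and 70.1 (PTS3). Those levels overlapped with MTAL (106, 89.9 and 72.0 TPM), CTAL (60.5 to 83.9) and DCT (85.8 to 95.1). Glomeruli held 1.20, 0.70 and 1.15 TPM, under their receptor background, and the difference from the tubule groups was -5.99 (SE 0.15, adjusted p 5.79e-33 by limma).

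The 3 highest Krt8 groups were IMCD (336, 360 and 420 TPM), ATL (330, 391, 131 and 258) and CCD (253, 237, 281, 255 and 227). DTL2, at 42.4, 58.1 and 39.4 TPM, was the lowest tubule segment, 1.51 below DTL1 (SE 0.21, adjusted p 1.18e-07) and 1.53 below DTL3 (SE 0.21, adjusted p 1.44e-07). Between DCT and CNT it was higher in CNT by 1.01 log2 units (SE 0.21, adjusted p 0.000314 by limma), with no overlap between 95.1 TPM, the highest DCT mouse, and 162 TPM, the lowest CNT mouse. That call lay at the threshold, and it was lost after rescaling by median ratios (DCT minus CNT, -0.65), after quantile normalization (-0.79), at a pseudocount of 5 (-0.98), without DCT mouse 1 (-0.96) and without CNT mouse 2 (-0.89). A processed copy, Krt8-ps, was listed at 0.78 to 8.04 TPM as group means, and how reads were split between the copies is uncertain.

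Krt18 (ENSMUSG00000023043), the partner of Krt8, had the widest range of the 10 genes across the tubule, from 0 to 1796 TPM. It was highest in ATL, with 1796, 1756, 518 and 1085 TPM, followed by IMCD with 890, 615 and 858 and DTL3 with 572, 488 and 505. The ATL mice overlapped those of IMCD and DTL3, and the margin over IMCD (0.58, SE 0.36) was not called. In CCD the 5 mice stood at 507, 457, 535, 564 and 403 TPM, in OMCD at 404, 490, 452 and 524, and in CNT at 342, 408 and 301. Those 3 groups overlapped one another, and neither neighbouring difference among them was called.

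Krt18 was low in the proximal tubule, in DTL2 and in the thick ascending limb. In the proximal tubule PTS2 mice stood at 0.31 to 1.15 TPM and PTS3 mice at 0, 0.22 and 3.33, while PTS1 mice were at 6.31, 2.44 and 4.66, higher than PTS2 by 1.67 (SE 0.34, adjusted p 0.000156 by limma). Krt18 was the only one of 9 tested members called between PTS1 and PTS2, against 9.57% of all genes, and this call was lost at a pseudocount of 5. In the thick ascending limb MTAL mice stood at 32.9, 10.3 and 11.1 TPM and CTAL mice at 9.77 to 17.8. The step from ATL to MTAL, 6.12 log2 units (SE 0.36, adjusted p 7.38e-19), separated mice at 518 TPM or more from mice at 32.9 or less. DCT mice stood at 67.3, 67.1 and 62.7 TPM, higher than CTAL by 2.23 (SE 0.34, adjusted p 2.75e-06) and lower than CNT by 2.39 (SE 0.38, adjusted p 6.26e-06). Genes of 2 other cell types were also higher in DCT than in CTAL: intercalated cell genes (4 of 4 called) summed to 1.04 to 4.25 TPM in CTAL and 636 to 694 in DCT, and principal cell genes (3 of 4 called) to 48.2 to 89.2 and 514 to 605. Their part in the Krt18 difference was not tested. DTL2, at 23.5, 25.9 and 14.2 TPM, overlapped MTAL and CTAL, against 141, 254 and 248 in DTL1.

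**Figure D1:**
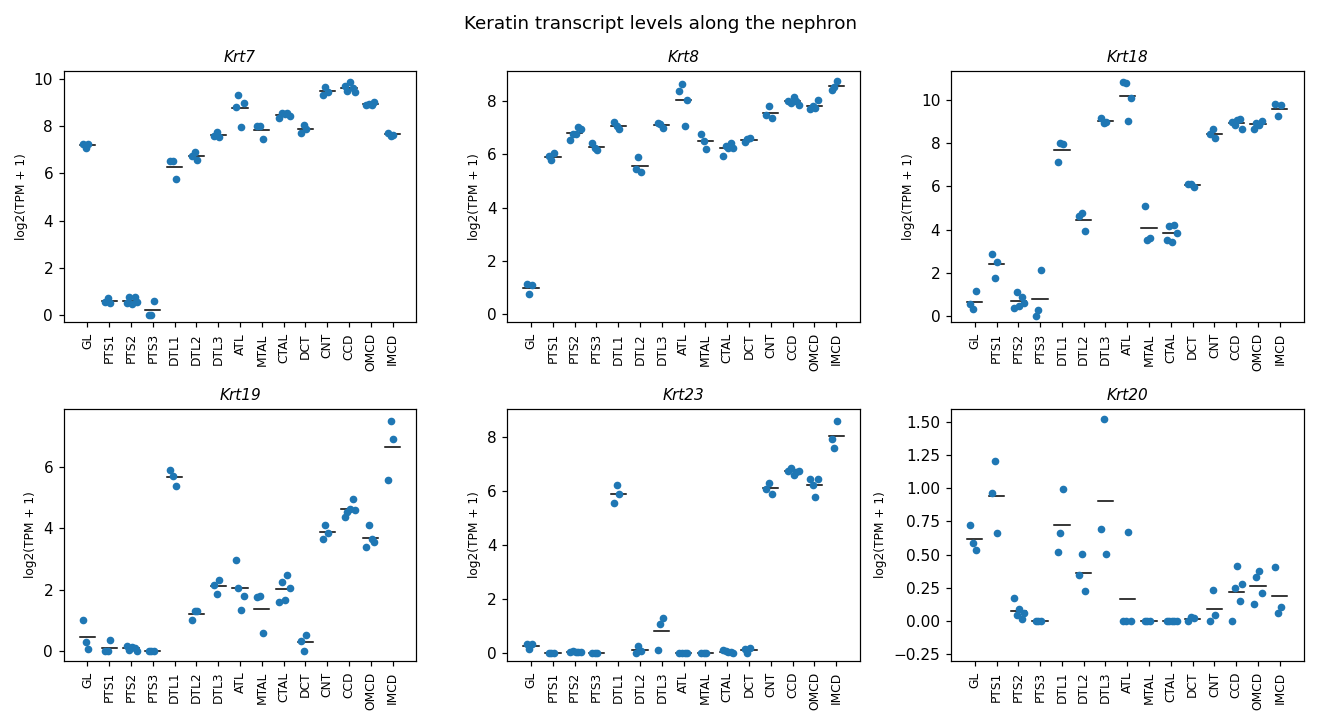
Each point is 1 mouse, the bar the mean of a group on the log2(TPM + 1) scale (vertical axis), and groups run along the nephron on the horizontal axis. Krt7 is near 0 in PTS1 to PTS3, Krt8 is present in all 14 tubule segments, Krt23 is near 0 outside DTL1, CNT, CCD, OMCD and IMCD, and Krt20 does not exceed 1.87 TPM.

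Krt19 (ENSMUSG00000020911), the small tail-less type I keratin of ductal epithelia, was highest in IMCD, where the 3 mice spread most widely in absolute TPM: 46.0, 180 and 119 TPM. DTL1 held 59.0, 50.8 and 40.9 TPM, overlapping IMCD mouse 1, and the margin of IMCD over DTL1 (0.97, SE 0.33) was not called. The margin was 1.53 (adjusted p 0.0026 by limma) without IMCD mouse 1. CCD followed with 19.6, 22.2, 23.9, 29.7 and 22.9 TPM, CNT with 11.6, 16.4 and 13.3, and OMCD with 9.54, 16.2, 11.7 and 10.7. Every other mouse, GL included, was under 7 TPM, and DCT was at 0.27, 0.02 and 0.45 TPM, lower than CTAL by 1.73 (SE 0.30, adjusted p 2.69e-05). The call of CTAL over DCT was lost at a pseudocount of 5. From OMCD to IMCD Krt19 rose by 2.97 log2 units (SE 0.31, adjusted p 1.17e-10).

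Krt23 (ENSMUSG00000006777), a less studied type I keratin, was either near 0 or abundant. IMCD mice stood at 243, 195 and 394 TPM, CCD at 108, 114, 96.7, 104 and 108, OMCD at 87.4, 73.2, 53.7 and 85.8, CNT at 67.6, 78.7 and 59.3, and DTL1 at 46.3, 73.3 and 58.9. The mice of all other groups were at 1.42 TPM or less, and all ATL, MTAL, PTS1 and PTS3 mice were listed at 0. The margin of IMCD over CCD, the next group, was 1.3 (SE 0.18, adjusted p 1.15e-06 by limma), which called Krt23 as higher in IMCD than in every other group. In that intersection-union test 0.527% of all genes were called for IMCD. From DCT, at 0.10, 0 and 0.12 TPM, to CNT the log2 difference, DCT minus CNT, was -6.01 (SE 0.20, adjusted p 8.39e-27).

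DTL1 carried both Krt19 and Krt23 at collecting duct levels. Against CCD, where 51.4% of all genes were called, Krt19 was higher in DTL1 by 1.06 (SE 0.30, adjusted p 0.00167), and Krt23 differed by -0.85 (SE 0.18, adjusted p 4.57e-05), which is under 1 log2 unit. The other descending segments held less: DTL2 mice were at 1.03 to 1.49 TPM of Krt19, under their receptor background of 1.98 to 2.32, and at most 0.18 of Krt23, and DTL3 mice at 2.62 to 4.03 TPM of Krt19, above the receptor background in 2 of 3 mice, and at most 1.42 of Krt23. The differences between DTL1 and DTL2 were 4.52 (SE 0.33, adjusted p 1.2e-14) and 5.80 (SE 0.20, adjusted p 5.37e-26). Principal cell genes were also higher in DTL1 than in DTL2, with 3 of 4 called: the list summed to 17.0 to 62.1 TPM in DTL1, at most 5 in DTL2 and 18045 to 23429 in CCD. Aqp2, the water channel of principal cells, stood at 29.0 TPM in DTL1, 1.52 in DTL2 and 14003 in CCD. Their part in the Krt19 and Krt23 values was not tested. Krt19 and Krt23 in DTL1 were also above the receptor background of each DTL1 mouse.

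Krt20 (ENSMUSG00000035775), a type I keratin of urothelial and intestinal cells that is also used as a transcript of injured tubules, was near the limit of these libraries. Its highest mice were at 1.87 TPM in DTL3 and 1.305 TPM in PTS1, the only mice at 1 TPM or more. It exceeded the receptor background in 11 of 53 mice, among them all 3 PTS1 mice (0.95, 1.305 and 0.58 TPM against at most 0.59). In DTL1, DTL3 and GL its values of 0.42 to 1.87 TPM lay under the background of the same libraries. The list of 7 transcripts of injured tubules was mixed in PTS1: Spp1, which encodes osteopontin, stood at 2576 TPM, Cdkn1a at 5.81, and Vcam1, Clu, Lcn2, Sox9 and Havcr1 at 0.08 to 0.69. The list summed to 2067 to 3184 TPM in PTS1 and 64.7 to 99.5 in PTS2, with 1 gene called higher in PTS1 (Spp1) and 2 higher in PTS2 (Clu and Havcr1). Its part in the Krt20 values was not tested. The list of 7 urothelial genes summed to 370 to 705 TPM in ATL, 204 to 225 in DTL3, 75.2 to 100.1 in DTL1 and 19.5 to 32.9 in DTL2, against at most 1.62 in the proximal segments. Its largest member was the uroplakin gene Upk3b (548 TPM in ATL and 67.5 in DTL1), and the basal keratin Krt5 was at 0.07 TPM or less as a mean of any group. Of 5 such genes tested, 3 were called higher in DTL1 than in DTL2 and 4 higher in the thin limb than in the proximal groups, and their part in the keratin values of the thin limb was not tested.

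Since a type II keratin needs a type I partner, the balance of both types was followed along the tubule. Summed over the keratins Krt7, Krt8, Krt18, Krt19, Krt20 and Krt23, the level was 65.2 ± 6.61 TPM (SD, n = 3 mice) in PTS1, 2025 ± 853 (n = 4) in ATL, 339 ± 71.3 (n = 3) in MTAL and 1751 ± 226 (n = 3) in IMCD. These are descriptions, with no test. Type I genes made up 67.2% ± 2.52 of that sum in IMCD, 62.5% ± 5.39 in ATL, 61.3% ± 2.79 in DTL3 and 60.2% ± 8.11 in DTL1. Along the distal nephron the share went from 3.73% ± 0.80 in CTAL through 16.8% ± 1.59 in DCT, 32.6% ± 1.91 in CNT, 37.6% ± 1.95 in CCD and 43.7% ± 1.09 in OMCD. In PTS2 it was 0.71% ± 0.27. Proximal and thick limb segments thus held type II transcripts with few type I transcripts among these genes.

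**Figure D2:**
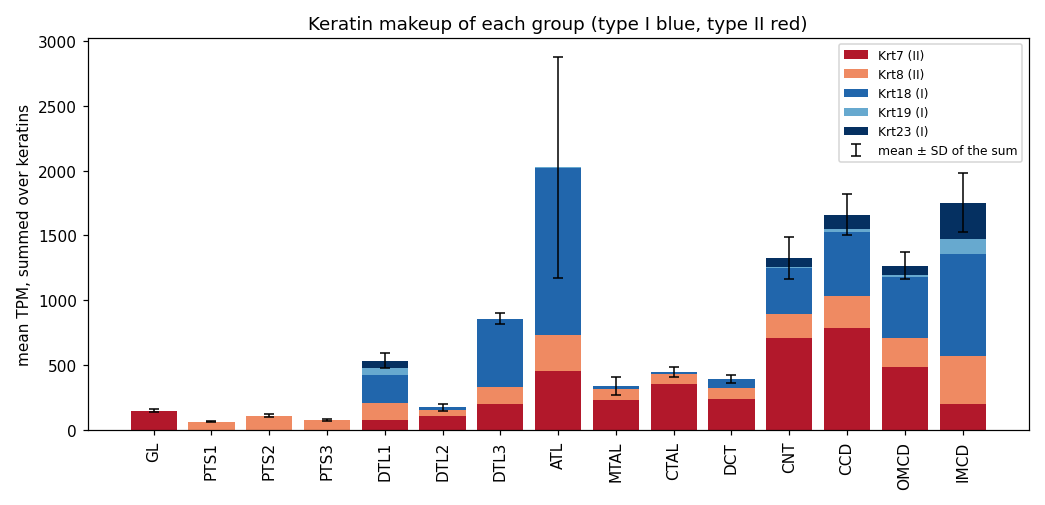
Stacked bars give the mean TPM of 5 keratins in each group, type II in red and orange and type I in blue, and the error bar is the SD of the sum over mice, which includes Krt20. Proximal segments hold Krt8 almost alone, MTAL and CTAL mostly Krt7 with Krt8, and ATL is the group with the widest spread.

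The ratio of Krt18 to Krt8 was taken in each mouse with both at 1 TPM or more. In CNT it was 1.88-fold, in CCD 1.96-fold, in OMCD 2.10-fold and in IMCD 2.10-fold, with log2 ratios of 0.91 ± 0.03 (SD, n = 3), 0.97 ± 0.11 (n = 5), 1.07 ± 0.08 (n = 4) and 1.07 ± 0.32 (n = 3). The mean log2 ratios were thus close to 1 in all 4 groups, although the mice of CNT lay below those of OMCD, while the level of Krt8 itself ranged from 162 to 420 TPM across these mice. DTL3 and ATL held more Krt18 still, at log2 ratios of 1.96 ± 0.12 (n = 3) and 2.17 ± 0.20 (n = 4). The 4 ATL mice ranged from 1.98 to 2.45, although their Krt18 levels differed from 518 to 1796 TPM, so the ratio spread less than the levels. In MTAL and CTAL the log2 ratio was -2.51 ± 0.74 (n = 3) and -2.48 ± 0.29 (n = 5), in PTS1 -3.87 ± 0.62 (n = 3), in DTL2 -1.23 ± 0.22 (n = 3) and in DCT -0.48 ± 0.13 (n = 3). The ratio was above 0 in 7 groups by its mean, and in DTL1 1 of 3 mice was just under it, at -0.05.

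The 2 type II genes exchanged places along the distal nephron. Krt7 exceeded Krt8 2.56-fold in MTAL, 4.82-fold in CTAL, 2.57-fold in DCT, 3.81-fold in CNT, 3.12-fold in CCD and 2.21-fold in OMCD, while in IMCD the ratio of Krt7 to Krt8 was 0.54. The log2 ratio was 1.14 ± 0.08 (n = 4) in OMCD and -0.90 ± 0.20 (n = 3) in IMCD, with no overlap. DTL1 was also below 0, at -0.80 ± 0.36 (n = 3). Between OMCD and IMCD intercalated cell genes went from 2118 to 2866 TPM to 0.33 to 4.55 TPM, and their part in the ratio was not tested. In the proximal segments, where Krt7 was under 1 TPM, no ratio was taken, and Krt8 was far higher than Krt7. In glomeruli Krt8 was under the receptor background, so the ratio there, drawn for 2 mice, is not read. Krt7 overlaps the antisense gene Gm671, which reached 61.9 TPM in ATL, and whether reads were counted by strand is not given in the sources used here.

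**Figure D3:**
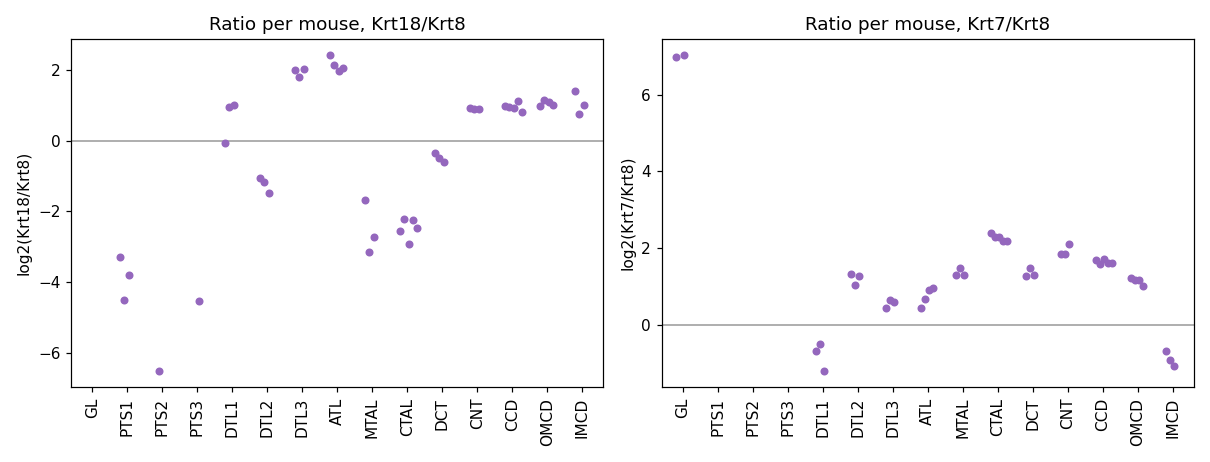
Log2 ratio of Krt18 to Krt8 (left panel) and of Krt7 to Krt8 (right panel) in each mouse where both genes reach 1 TPM, by group; the line is at equal levels. Points of CNT, CCD, OMCD and IMCD lie together near 1 on the left, and those of IMCD and DTL1 lie below 0 on the right.

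Vimentin, desmin and nestin transcripts were highest in the glomerulus. Vim (ENSMUSG00000026728) stood at 660, 592 and 664 TPM in the 3 GL mice and at 15.8 TPM at most in any tubule mouse. Des (ENSMUSG00000026208) stood at 225, 194 and 230 TPM, against 12.3 at most in the tubule. Nes (ENSMUSG00000004891) stood at 352, 348 and 408 TPM, against 25.4 at most. No tubule mouse overlapped the glomeruli in any of the 3 genes. Their margins over DTL1, the next group for each, were 6.27 for Vim (SE 0.50, adjusted p 5.51e-14 by limma), 4.67 for Des (SE 0.37, adjusted p 6.82e-14) and 4.37 for Nes (SE 0.30, adjusted p 4.63e-16), and the intersection-union test called all 3 for GL, as it did 3.22% of all genes.

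Against the mean of the 14 tubule groups, 7 of 9 tested members were called, where 35.6% of all genes were. Vim, Des and Nes were higher in GL by 7.80, 6.89 and 7.07 log2 units, and Krt8, Krt18, Krt19 and Krt23 were lower by 5.99, 5.48, 1.94 and 2.17; Krt7 (0.72) and Nefl (-0.19) were not called. A glomerulus holds several cell types, and lists of their marker genes moved with Vim, Des and Nes. Podocyte genes (8 of 8 at 1 TPM or more) summed to 13091 to 15501 TPM in GL and 0.88 to 142 in the tubule, and endothelial genes (8 of 8) to 4885 to 5268 against 27.4 to 3935. Mesangial and pericyte genes (6 of 6) summed to 1697 to 2669 against 0.18 to 188, and smooth muscle genes (3 or 4 of 5) to 241 to 352 against 0 to 23.6. Fibroblast genes (5 of 6) summed to 220 to 315 TPM against 0.25 to 79.8, and leukocyte genes (5 to 7 of 7) to 374 to 467 against 0.21 to 113. No gene of the podocyte, endothelial or mesangial lists was at 0 in GL. The part of each cell type in the 3 filament genes was not tested.

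In the tubule the 3 genes were low and highest in DTL1. Vim mice there stood at 13.4, 15.8 and 2.42 TPM, Des at 5.42, 7.36 and 12.3, and Nes at 25.4, 11.3 and 17.6. The receptor background of these libraries was exceeded by Vim in 2 of 3 mice, by Des in 2 of 3 and by Nes in 3 of 3. All 3 genes were called higher in DTL1 than in PTS3, by 2.89, 3.02 and 3.89 log2 units, in a comparison where 65.5% of all genes were called; the Des call was lost after quantile normalization (-0.90, PTS3 minus DTL1). Endothelial genes (8 of 8 at 1 TPM or more) summed to 2943 to 3935 TPM in DTL1, 1109 to 2032 in DTL2 and 678 to 1669 in DTL3, against 66.5 to 142 in PTS3, and mesangial and pericyte genes (5 of 6) to 19.99 to 39.7 TPM in DTL1 against 0.18 to 1.61 in PTS3. Fibroblast genes summed to 43.8 to 67.6 TPM in DTL1 against 0.25 to 1.44 in PTS3, with 5 of 5 tested called higher in DTL1, and leukocyte genes to 22.1 to 45.8 against 1.86 to 2.26. Podocyte genes summed to 90.3 to 142 TPM against 0.88 to 3.08 (6 of 8 called) and smooth muscle genes to 7.57 to 23.6 against 0 to 1.29 (3 of 4 tested). The neuronal genes Nefm, Nefh, Tubb3, Snap25, Stmn2 and Elavl4 had group means of 1.88 to 5.58 TPM in DTL1 and at most 0.05 in PTS3. The receptor background was 5.17 to 10.96 TPM in DTL1 and at most 0.005 in PTS3, so these neuronal means were not clear of it. The part of these lists, of the neuronal genes and of the background in the DTL1 values was not tested.

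Nes differed from Vim and Des in the inner medullary collecting duct. IMCD mice stood at 10.2, 10.2 and 10.6 TPM of Nes, against 2.21, 1.67, 1.94 and 2.11 in OMCD and 0.41 to 0.52 in CCD. It rose by 1.91 log2 units from OMCD to IMCD (SE 0.28, adjusted p 3.87e-07 by limma), where 18.6% of all genes were called. Des was lower in IMCD than in OMCD by 1.10 (SE 0.35, adjusted p 0.0132), a call lost without OMCD mouse 2 (0.88, adjusted p 0.0656). The Des call was also lost after rescaling by median ratios (0.88), after quantile normalization (0.41) and at a pseudocount of 5 (0.36). Vim was not called (0.97, SE 0.47). The IMCD receptor background was 0.13 to 0.46 TPM, lower than 0.90 to 1.70 in OMCD, and endothelial genes summed to 27.4 to 317 TPM in IMCD and 421 to 539 in OMCD. Their part in the Nes difference was not tested. Nes in IMCD was at a level like that of DTL3, 10.4, 8.74 and 9.23 TPM, and the difference of -0.09 (SE 0.30) was not called.

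From CCD to OMCD, where 4 of 9 members and 12.1% of all genes were called, Vim, Des and Nes were higher in OMCD: Vim by 1.20 (SE 0.41, adjusted p 0.0256 by limma), Des by 1.18 (SE 0.31, adjusted p 0.00378) and Nes by 1.02 (SE 0.25, adjusted p 0.002). Receptor background was 0.05 to 0.15 TPM in CCD and 0.90 to 1.70 in OMCD, the median of all genes differed by 0.30 log2 units in the same direction, and endothelial genes summed to 142 to 236 TPM in CCD and 421 to 539 in OMCD. Their part was not tested. All 3 calls were lost after rescaling by median ratios (-0.996, -0.98 and -0.82), and they rested on single mice: the Vim call was lost without CCD mouse 4, OMCD mouse 1 or OMCD mouse 2 (adjusted p 0.0683 to 0.102), that of Des without OMCD mouse 2 (-0.96) and that of Nes without OMCD mouse 1 (-0.98) or mouse 4 (-0.996).

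Nefl (ENSMUSG00000022055) was highest in the connecting tubule. CNT mice stood at 15.7, 13.8 and 11.1 TPM, and the next groups were CCD, at 2.90, 1.86, 3.90, 2.51 and 3.31, and DCT, at 2.44, 1.14 and 3.54. Neither group overlapped CNT, while CCD and DCT overlapped each other. All other mice were under 1 TPM. The margin of CNT over CCD was 1.91 (SE 0.18, adjusted p 1.91e-09 by limma), and Nefl was 1 of the 0.0148% of all genes that the intersection-union test called for CNT; at a pseudocount of 0.1 the margin was 2.21 and was not called (adjusted p 0.202). It was lower in DCT than in CNT by 2.30 (SE 0.20, adjusted p 2.19e-12) and higher in DCT than in CTAL by 1.13 (SE 0.18, adjusted p 5.45e-06). The latter call was lost without DCT mouse 3 (-0.91) and at a pseudocount of 5 (-0.42). Intercalated cell genes summed to 1.04 to 4.25 TPM in CTAL, 636 to 694 in DCT, 4307 to 4987 in CNT, 3242 to 4436 in CCD and 2118 to 2866 in OMCD. Principal cell genes rose from CTAL to DCT in 3 of 4. Fibroblast genes summed to 10.5 to 42.5 TPM in CTAL, 2.46 to 7.49 in DCT, 62.9 to 79.8 in CNT, 55.8 to 63.6 in CCD and 8.94 to 16.4 in OMCD. Dcn made up most of the sums in CNT and CCD, at means of 71.2 and 55.9 TPM, and had a mean of 6.77 in CTAL. The collagen genes Col1a2 and Col3a1 were lower in CNT (0.43 and 1.25 TPM) than in CTAL (3.34 and 8.46). Of 5 fibroblast genes tested 1 was called higher in CNT than in DCT, and from CCD to OMCD 1 was called in each direction. The part of these lists in the Nefl differences was not tested. From CCD to OMCD Nefl fell by 1.70 (SE 0.16, adjusted p 6.32e-11), a call lost at a pseudocount of 5 (0.60).

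Other transcripts of neurons were near 0 in CNT. Prph, which encodes the neuronal filament protein peripherin, had a mean of 0.07 TPM there (0.04 to 0.11 over 3 mice), and Nefh, the heavy neurofilament subunit, one of 0.03 (0.02 to 0.06). Tubb3, Snap25, Stmn2 and Elavl4 were at 0.10 TPM or less in each CNT mouse. The CNT receptor background was 0.07 to 0.09 TPM. Nefl overlaps Nefm on the opposite strand, and Nefm, the medium neurofilament subunit, stood at 0.10 TPM in CNT and at most at 3.06 TPM in any group, in DTL1.

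**Figure D4:**
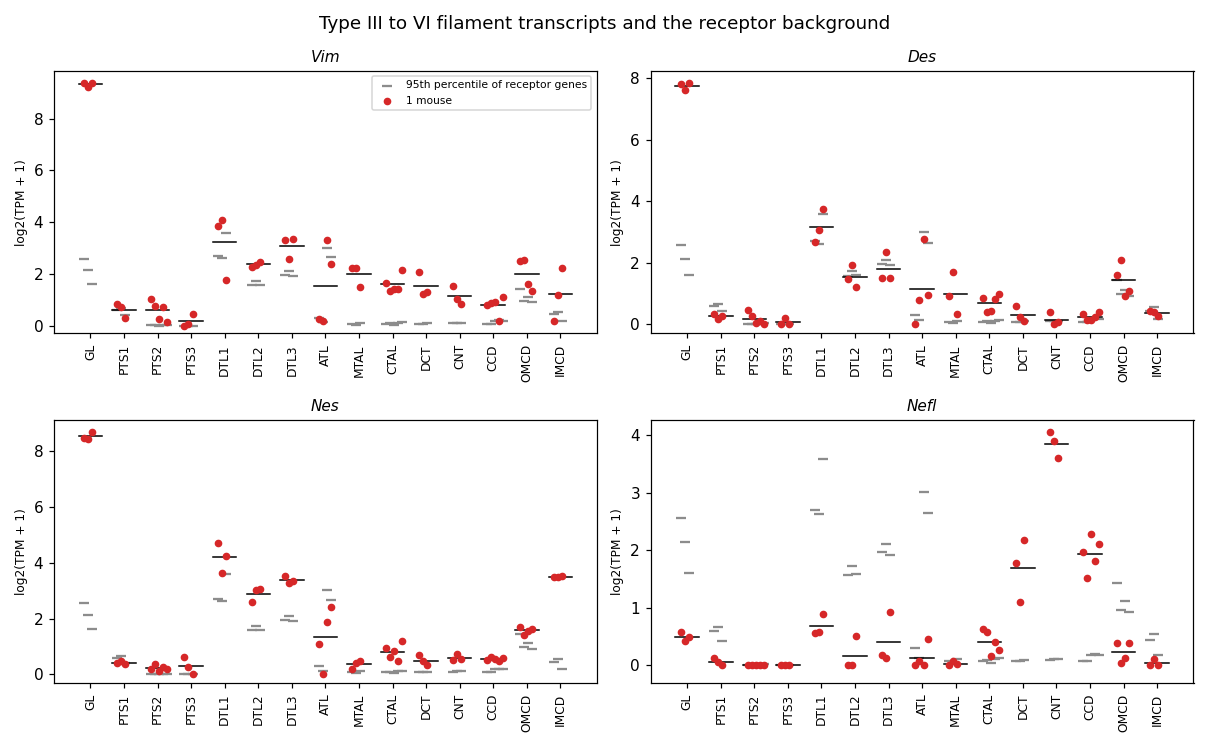
Points are mice and bars group means on the log2(TPM + 1) axis, and grey dashes are the 95th percentile of 1740 receptor genes in the same mouse. Vim, Des and Nes lie far above the dashes in GL and near them in DTL1, Nes stands clear of them in IMCD, and Nefl stands clear of them in DCT, CNT and CCD.

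Over 14 pairs of segments, which follow each other along the tubule except for DTL1 and DTL2, the descending limbs of different loops, 47 of 126 combinations of a tested member and a pair were called, where 17.5% of all combinations were. From DCT to CNT 6 of 9 were called, all higher in CNT (Krt7 by 1.58, Krt8, Krt18, Krt19, Krt23 and Nefl, the Krt8 call being lost after rescaling), in a comparison where 5.22% of all genes were called and 3.70% were higher in CNT. Principal cell genes summed to 514 to 605 TPM in DCT and 8624 to 12170 in CNT, and intercalated cell genes to 636 to 694 and 4307 to 4987, with 4 of 4 called in each list, and their part in the 6 differences was not tested. From PTS3 7 of 9 were called to DTL1 and 6 of 9 to DTL2 (65.5% and 40% of all genes), from DTL1 to DTL2 6 of 9 (28.2%) and from DTL2 to DTL3 2 of 9 (9.58%). From CTAL to DCT 3 of 9 were called (4.35% of all genes), from ATL to MTAL 2 of 9 (28.1%), and from DTL3 to ATL 4 of 9 (14.6%). No member was called from PTS2 to PTS3 (4.70% of all genes) or from MTAL to CTAL (3.15%); at an unadjusted p under 0.05 by limma they numbered 2 and 3 of 9, where 18.9% and 13.9% of all genes were under it. From CNT to CCD Nefl alone was called (1.12%).

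Between DTL3 and ATL 3 of the 4 calls, those of Krt7, Krt18 and Vim, depended on single mice. Krt7 was higher in ATL than in DTL3 by 1.12 (SE 0.18, adjusted p 4.04e-06) and Krt18 by 1.15 (SE 0.36, adjusted p 0.0116), while Vim was lower by 1.51 (SE 0.47, adjusted p 0.0115) and Nes by 2.04 (SE 0.28, adjusted p 1.55e-07). ATL mice 2 and 3 held 1796 and 1756 TPM of Krt18 and 0.20 and 0.12 of Vim, and mice 4 and 6 held 518 and 1085 of Krt18 and 8.93 and 4.21 of Vim. Mice 4 and 6 had more genes at 1 TPM or more (23465 and 24647) than mice 2 and 3 (13949 and 13532), and their part in these differences was not tested. With ATL mice 4 and 6 alone the differences were -0.82 for Krt7, -0.53 for Krt18 and 0.19 for Vim, and none of the 3 was called, while Nes was still past both thresholds (1.23). Endothelial genes, 8 of 8 called higher in DTL3, summed to 678 to 1669 TPM in DTL3 and 163 to 267 in ATL, and their part in the Vim and Nes differences was not tested. The Krt18 call was also lost without ATL mouse 2 (-0.93) or 3 (-0.95), that of Krt7 without mouse 3 (-0.94), and that of Vim without mouse 2, mouse 3 or DTL3 mouse 1 (1.05 to 1.37).

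**Figure D5:**
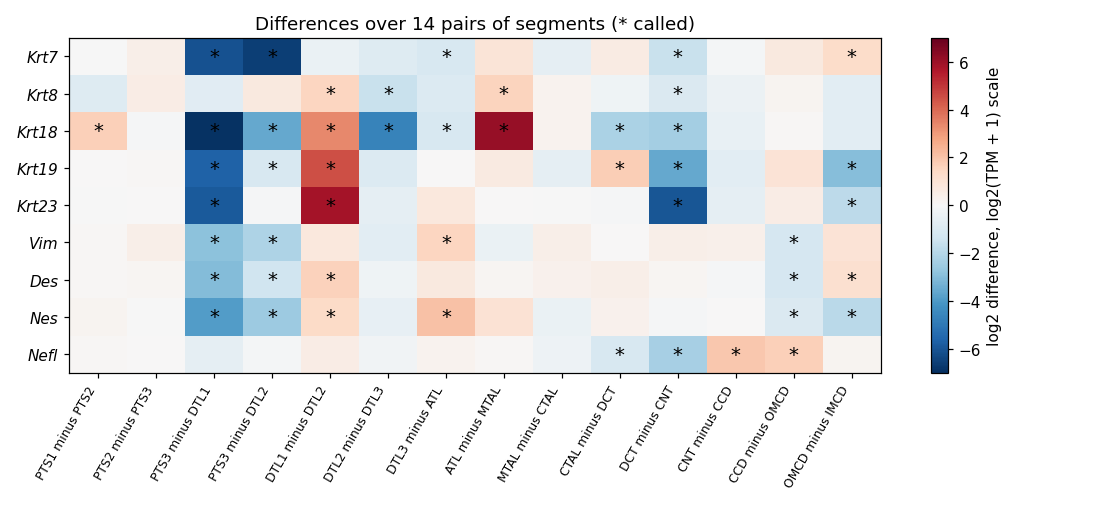
Colours give the log2 difference, the first segment minus the second, for 9 members over 14 pairs of segments (neighbours along the tubule except DTL1 and DTL2), and an asterisk marks a call (adjusted p under 0.05 and at least 1 log2 unit). Calls stand in columns at PTS3 to DTL1 and DCT to CNT, and no asterisk stands at PTS2 to PTS3 or MTAL to CTAL.

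When the 15 groups were put in the order of each member's mean level, most neighbours in that order were not called. Of 126 such steps 16 were called, which also takes a difference of 1 log2 unit, where 27.9% of all combinations of a gene and a pair of groups were; neighbours in an order are by their choice the pairs that differ least. For Krt7 and Krt8 the order held 1 called step each, above PTS2 for Krt7 and above GL for Krt8. Krt18 had 4, which set apart DCT from DTL1 and DTL2, and PTS1 from CTAL and PTS3. Krt19, Krt23, Des and Nes had 2 each, and Vim and Nefl 1 each.

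Between whole regions 26 of 36 combinations were called. The collecting duct groups CCD, OMCD and IMCD exceeded the proximal groups in 6 of 9 members (24.5% of all genes called): Krt7 by 8.27, Krt18 by 7.87, Krt23 by 6.99, Krt19 by 4.90, Krt8 by 1.78 (0.82 after rescaling by median ratios, not called) and Nes by 1.56 (0.98 after quantile normalization, not called). Also higher in the collecting duct were 4 of 8 endothelial, 3 of 6 mesangial and pericyte, 3 of 7 leukocyte and 3 of 5 tested urothelial genes. None of these lists had a gene called lower there, and their part in the 6 differences was not tested. The thin limb exceeded the proximal groups in 7 of 9 (45.2% of all genes), all but Krt8 and Nefl. The calls of Vim (2.04) and Des (1.70) were lost after quantile normalization (0.80 and 0.41) and at a pseudocount of 5 (0.93 and 0.66), and that of Krt23 at a pseudocount of 5 (0.97). In that comparison 8 of 8 endothelial genes (list median 3.06), 5 of 5 fibroblast genes, 4 of 8 podocyte genes and 3 of 6 mesangial and pericyte genes were higher in the thin limb too, and their part was not tested. Against the thick limb 5 of 9 were higher in the collecting duct (11.6%), Krt7 not being among them (0.58, SE 0.11), and the Nes call was lost after quantile normalization (0.78). Against the thin limb 5 keratins were higher in the collecting duct and Vim, Des and Nes lower (19.3%). For Krt18 the log2 difference was 1.32 (SE 0.19), while the mean TPM was 583 in the collecting duct groups and 511 in the thin limb groups, because DTL2, at a mean of 21.2 TPM, lowers the mean of the log values. By TPM its mean in ATL, 1289, was above those of all 3 collecting duct groups, and that in DTL3, 522, was above CCD and OMCD. Endothelial genes moved with Vim, Des and Nes, 7 of 8 being lower in the collecting duct with a list median of -2.19, and their part was not tested. The Nes call was lost with the mouse number as a block (-0.99), after rescaling (-0.83) and without DTL1 mouse 1 (-0.995) or ATL mouse 6 (-0.98), and all 3 were lost after quantile normalization (-0.55 for Vim, -0.32 for Des and -0.46 for Nes). Without DTL1 among the thin limb groups, an alternative chosen after seeing the data, the thin limb call of Krt23 over the proximal groups was lost (0.26 against 1.66), as were the calls of Des (-0.81) and Nes (-0.65) against the collecting duct, and 23 of 36 were called.

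Genes for proteins that anchor keratins to desmosomes and to the membrane were listed separately. Of 12 linker and desmosome genes 9 were higher in the collecting duct than in the proximal groups, with a list median of 2.02 log2 units against 0.26 over all genes, of which 24.5% were called. In the thin limb 10 were higher (1.72 against 0.84, with 45.2% of all genes called). Dsp, which encodes desmoplakin, the protein that ties filaments to the desmosome, stood at 0.03 ± 0.02 TPM in PTS2 (n = 5) and 39.8 ± 2.31 in ATL (n = 4), and was higher in the collecting duct than in the proximal groups by 4.62 (SE 0.09, adjusted p 1.13e-37 by limma). Ppl, which encodes periplakin, a linker of filaments to the cell cortex, was higher there by 5.13 (SE 0.11) and highest in DTL3, at 240 ± 16.9 TPM (n = 3). From DCT to CNT, where 5.22% of all genes were called and 3.70% were higher in CNT, 7 of the 12 were called, all higher in CNT: Dsp by 2.14, Dsc2 by 1.83, Plec by 1.78, Ppl by 1.75, Pkp2 by 1.27, Jup by 1.21 and Evpl by 1.11. Principal and intercalated cell genes were higher in CNT too, with 4 of 4 called in each list, and their part in the 7 differences was not tested. From OMCD to IMCD, where 18.6% of all genes were called, 5 of the 12 were lower in IMCD and 1 was higher, and the desmosomal cadherins Dsg2 and Dsc2 were among the 5. Dsg2 stood at 15.6 ± 3.37 TPM in OMCD (n = 4) and 0.05 ± 0.03 in IMCD (n = 3), and Dsc2 at 18.4 ± 6.09 and 0.09 ± 0.07, differences of 3.96 (SE 0.25, adjusted p 1.98e-17) and 4.10 (SE 0.29, adjusted p 7.73e-16). Krt19 and Krt23 rose in the same step. Intercalated cell genes, 4 of 4 called, summed to 2118 to 2866 TPM in OMCD and 0.33 to 4.55 in IMCD, and their part in these differences was not tested.

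The rest of the keratin family was mostly listed at low levels. Of 44 further keratin symbols 27 had no group mean of 1 TPM, and 2 had a group mean of 10 TPM or more. Krt80, a type II keratin of many epithelia, was at 102 ± 24.9 TPM in OMCD (n = 4), 89.8 ± 10.2 in CNT (n = 3) and 17.4 ± 0.98 in DCT (n = 3), higher in CNT than in DCT by 2.35 (SE 0.30, adjusted p 6.08e-08). Krt10, a type I keratin of the upper epidermis, had group means of 14.5 to 35.1 TPM in all 15 groups, the proximal groups and the glomerulus included. Krt10 in PTS2 (14.5 ± 1.86 TPM, n = 5) and in MTAL (33.4 ± 2.82, n = 3) was thus above the summed type I transcripts of the 6 keratins there, 0.79 and 19.9 TPM. Among 9 further filament genes Sync, which encodes syncoilin, reached 25.0 TPM in ATL and 21.6 in GL. Of the lamins, the filaments of the nucleus, Lmna was higher in GL than in the tubule by 1.93 (SE 0.11, adjusted p 1.88e-19).

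For each tested member the 3 genes with the most similar pattern over the 53 mice were taken from 10059 genes with a group mean of at least 20 TPM, by Pearson's r of log2(TPM + 1). The points share libraries and background, and mice of 1 group share their segment, so the values are descriptions. For Krt7 they were Pygb (r 0.97), Gpr108 (0.97) and Tle2 (0.97), and for Krt8 Grb7 (0.91), Rnf128 (0.89) and Igsf5 (0.87). For Krt18 the list was Cldn4 (0.94), Rasef (0.92) and Rgl3 (0.91). Pde1c and Styk1 were among the 3 for both Krt19 (0.84 and 0.84) and Krt23 (0.91 and 0.93), with Morf4l2 (0.83) for Krt19 and Aqp2 (0.90) for Krt23. Vim was nearest to Colec12 (0.97), Des to Abca9 (0.98) and Nes to Ebf1 (0.94), each highest in GL. Nefl was nearest to Cd8a (0.93), Hmx2 (0.90) and Kcne1 (0.89), all highest in CNT. Cd8a encodes a T cell coreceptor chain and stood at 32.8 TPM in CNT. The 7 leukocyte genes, Cd8a among them, summed to 63.0 to 96.0 TPM in CNT (5 of 7 at 1 TPM or more), 21.7 to 34.4 in DCT and 19.2 to 40.7 in CCD. Their sum was no lower in MTAL (66.6 to 113 TPM) and overlapped that of CNT in CTAL (45.6 to 82.7), where Nefl was at 0.05 TPM or less and at 0.12 to 0.55 TPM. Cd8a itself had means of 0.02 TPM in MTAL and 0.06 in CTAL, so like sums are made up of different genes, and the part of leukocytes in the Nefl values was not tested.

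Among the members themselves Krt19 and Krt23 followed each other across the 53 mice (r 0.90), and r was -0.07 once group means were removed. For Krt7 and Krt8 r was 0.21 over all mice and 0.73 within groups, where Krt8 and Krt18 had 0.57. Vim and Des had r 0.95 over all mice and 0.45 within groups. These are descriptions over mice that share a depth and a background within each library.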

How the data were processed

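Per the labels' protocols, RNA was extracted with Direct-zol kits, amplified as cDNA with the SMARTer V4 Ultra Low kit and made into libraries with Nextera XT. The authors deposited TPM values per gene, and the values of each library sum to 999999 to 1000190. The submitters' processing notes name STAR 2.5.4a and RSEM 1.3.0; the genome build and the use of strand are not given in the sources used here. TPM keeps no depth, so no counting error could be given. From there, log2(TPM + 1) values were averaged over the pieces of a mouse. For 1 PTS2 library the mouse number had a sample title but the piece letter did not, and it was kept as a mouse of its own. The averaged values were fitted over all 53 combinations of a mouse number and a group with limma 3.58.1 in R 4.3.3 (moderated tests with a mean trend), for 33793 genes with 1 TPM or more in 3 mice. No source says whether a mouse number marks the same animal across segments. Correlations of deviations from group means had a median of 0.000185 over 290 pairs of same-numbered mice of different groups, 6.55% of them over 0.1. Over 1016 pairs with different numbers the values were 0.000366 and 3.15%. The medians were alike but the share over 0.1 was higher for same numbers, so this check cannot decide whether the numbers pair mice. The main fit treated the 53 values as unpaired, and a replicate block was run as an alternative. Named genes were all members, the 3 most similar genes of each and genes of the fixed lists; Krt8-ps and Gm671 fall outside that rule and were chosen after their values were seen. Members and lists were chosen with earlier results of these data known. On simulated data for CCD against OMCD, 96% of 200 genes changed by 2 log2 units were recovered. The alternatives were other pseudocounts, no filter, rescaling by median ratios, quantile normalization, a replicate block and leaving out each mouse. The 3 single-cell runs were not analysed here. One listed item is not reported here.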

Additional observations from a re-analysis of the deposited data

Results flagged for a closer look

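Des in ATL mouse 4 stood at 5.90 TPM, and the other 3 ATL mice were at 0 to 0.94 TPM. It was picked out because the gap to the nearest mouse was 0.841 of the range of the group. Des in ATL was 1 of 27 combinations of a member and a group examined, and chance picks about 1 in 20. The 95th percentile of receptor genes was 7.06 TPM in mouse 4 itself, so its Des value lay under its own background. In ATL mice 2, 3 and 6 the percentile was 0.24, 0.09 and 5.30 TPM. The part of the background in the value was not tested.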

How the results depend on the processing

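All 9 tested members differed among groups under each setting run, and no result changed direction. Over the 14 pairs of segments 47 combinations were called, with 53 at a pseudocount of 0.1, 32 at 5, 44 after rescaling by median ratios, 41 after quantile normalization and 45 to 50 without single mice. Over regions 26 were called, with 31, 18, 24 and 19 under those 4 settings and 25 to 26 without single mice. For the glomerulus 7 were called (8 at a pseudocount of 0.1, 7 without any single mouse), and as markers of 1 group 5 (4 at 0.1, 6 after rescaling or quantile normalization, 5 to 6 without single mice). With the mouse number as a replicate block the counts were 47 and 25, and the call lost was Nes between collecting duct and thin limb (-0.99). Without the filter, 69.8% of 54532 genes passed the F-test, and Krt20 did too (adjusted p 1.32e-07 by limma). Of the 27 most similar genes, 3 stayed among the top 3 by Spearman's rho and 17 by group means.

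The margin of Krt19 in IMCD was called after rescaling (1.44) and quantile normalization (1.43), and that of Nefl in CNT was not called at a pseudocount of 0.1 (2.21, adjusted p 0.202 by limma). The CCD to OMCD calls of Vim, Des and Nes were lost under rescaling (-0.996, -0.98 and -0.82), quantile normalization and a pseudocount of 5, and Krt8 from DCT to CNT was -0.65 after rescaling. After quantile normalization the region calls of Vim and Des were lost, as were those of Nes except for the thin limb against the proximal groups. The Nes call between collecting duct and thin limb was also lost after rescaling (-0.83) and without DTL1 mouse 1 (-0.995) or ATL mouse 6 (-0.98). Quantile normalization moved the all-gene median from -1.33 to -0.02 between PTS3 and DTL1, and from 0.69 to -0.03 for the glomerulus. The cause was not tested. Unknown depth limits all values near 0.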
